A study of Mus musculus with 22 samples.

Results

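The 10 genes described here take glucose into the heart muscle cell and carry it through glycolysis to lactate: Slc2a4, Hk1, Hk2, Pfkm, Pfkp, Aldoa, Pgk1, Eno3, Ldha and Ldhb. The data are array measurements of heart RNA from 22 female C57BL/6 mice, and the labels name no genetic change. Members were found by matching the accession of each array probe to RefSeq, and 18 of 41174 probes matched one of the 10 symbols. All 10 genes were among the 15503 genes tested, each represented by 1 probe that was well above background on all 22 arrays.

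The mice received a single dose of 162 µg of nano-sized titanium dioxide (nano-TiO2) into the trachea, or the dispersion medium alone, and the heart was taken 1 or 28 days later. Each arm held 5 mice at day 1 and 6 at day 28. Both arms received saline containing cell-free lavage fluid from untreated mice, and all mice had been 5 to 7 weeks old when purchased, with 1 to 3 weeks of acclimatization before the experiment. Heart RNA of each mouse was labelled with Cy5 and hybridised with a common reference RNA, a pool from 11 mouse cell lines, in Cy3, with no dye swap. Every value below is therefore a log2 ratio of heart to reference on 1 array, and levels of different genes are not compared with each other. Each array was a different mouse, and 5 or 6 arrays per group limit the precision.

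Glucose enters heart muscle cells mainly through the insulin-responsive transporter GLUT4, and hexokinase traps it as glucose 6-phosphate. Phosphofructokinase is the main regulated step of glycolysis, and aldolase, phosphoglycerate kinase, enolase and others carry the carbon on to pyruvate. Pyruvate is either reduced to lactate by lactate dehydrogenase or oxidised in mitochondria through pyruvate dehydrogenase. The adult heart draws most of its energy from fatty acids, and the balance between these and glucose shifts with feeding, oxygen supply and disease.

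The tissue is labelled heart, but the extraction protocol mentions lung. Myh6, Tnnt2 and Actc1, which encode contractile proteins of heart muscle, were well above background on 22 of 22 arrays, with mean log2 ratios of 4.95, 5.66 and 5.96, and the surfactant genes Sftpc and Sftpb were on 0 of 22. In Cy5, the share of probes detected well above background ran from 32.7% to 52.8% over the arrays. Marker transcripts of other cell types differed between arrays. Adipocyte markers (7 of 8 measured) had a mean, relative to the mean of all arrays, from -2.90 to -1.27 in the day 1 controls and from -0.00 to 3.36 in the day 28 controls, with 1 to 5 of the 7 well above background on the former and all 7 on the latter. On 3 arrays (control day 1 replicate 2, nano-TiO2 day 1 replicate 1 and nano-TiO2 day 28 replicate 1) the 6 atrial muscle markers had a mean between -3.19 and -3.09. Of 6 liver markers 3 were measured, and of 6 airway markers 1. The mean of either list lay above 1 on 5 arrays. These were control day 28 replicates 1, 3, 4 and 5 and nano-TiO2 day 1 replicate 2, called below the arrays with liver or airway markers or transcripts. The other arrays were not free of them, as all 3 liver markers were well above background on every day 1 control. In whole-tissue RNA, fewer cells of a type and less RNA per cell cannot be told apart.

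The start-site windows of 4 of the genes are shown because the comparisons below turn on Hk2, Pfkm and Eno3, and because Pgk1 varied most closely with Pfkm. Each window runs from 250 bases before to 50 bases after an annotated transcript start (RefSeq, GRCm38.p6). Capitals mark ACGTG on either strand, the core letters recognised by hypoxia-inducible factors, and CACGTG, the E-box letters that contain it on both strands.
Hk2 (chr6:82774405-82774704, minus strand): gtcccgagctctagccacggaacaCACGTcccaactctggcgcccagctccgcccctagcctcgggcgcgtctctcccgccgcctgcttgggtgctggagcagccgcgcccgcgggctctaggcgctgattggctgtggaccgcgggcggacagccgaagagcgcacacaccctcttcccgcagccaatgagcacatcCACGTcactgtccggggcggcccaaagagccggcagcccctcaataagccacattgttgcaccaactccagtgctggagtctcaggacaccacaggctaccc
Pfkm (chr15:98092339-98092638, plus strand): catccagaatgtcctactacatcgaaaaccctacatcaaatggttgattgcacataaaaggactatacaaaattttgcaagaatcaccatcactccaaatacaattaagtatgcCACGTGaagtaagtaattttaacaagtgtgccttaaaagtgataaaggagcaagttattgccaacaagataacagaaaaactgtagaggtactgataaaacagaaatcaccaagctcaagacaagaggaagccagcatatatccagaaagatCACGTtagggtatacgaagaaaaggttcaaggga
Pgk1 (chrX:106186850-106187149, plus strand): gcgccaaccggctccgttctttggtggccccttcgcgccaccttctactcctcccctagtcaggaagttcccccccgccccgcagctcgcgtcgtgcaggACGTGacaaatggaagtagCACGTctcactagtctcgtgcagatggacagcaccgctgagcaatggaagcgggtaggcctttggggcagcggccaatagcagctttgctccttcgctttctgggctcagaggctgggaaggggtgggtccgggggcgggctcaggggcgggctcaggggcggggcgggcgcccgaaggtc
Eno3 (chr11:70656926-70657225, plus strand): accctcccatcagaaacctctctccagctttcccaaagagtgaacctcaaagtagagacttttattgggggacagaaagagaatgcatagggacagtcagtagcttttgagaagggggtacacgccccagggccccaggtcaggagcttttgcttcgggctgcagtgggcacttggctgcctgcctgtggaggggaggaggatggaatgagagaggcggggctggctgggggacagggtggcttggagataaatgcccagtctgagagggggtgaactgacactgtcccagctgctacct
The Pfkm window is the first of 4 listed for that gene, and the Eno3 window starts inside the annotated gene span. Among the Pfkm windows not shown, the one from 98108221 held ACGTG, and those from 98108306 and 98111810 did not. Of 16 windows listed for 9 of the 10 genes, 8 windows of 6 genes held ACGTG, against 19.6% of 32841 windows of all genes. Some windows of the same gene overlap, and the same ACGTG and GGGCGG letters of Aldoa were counted in overlapping windows. CACGTG stood in 2 of the 16, in Ldha and Pfkm, against 7.15% of all windows. GGGCGG, a GC-box, stood in 6 of 16 against 35.7%, and TATAAA in 0 of 16 against 13.6%, both searched on either strand. CANNTG, with N for any letter, stood in 12 of 16 against 72.3%, and the letters of a MEF2 site in 0 of 16 against 3.19%. These are matches of letters only, the Eno3 window had no ACGTG, and no binding was measured in this study.

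Among vehicle-treated mice, the hearts taken at day 28 had lower levels of Pfkm, Eno3 and Hk2 than those taken at day 1. Pfkm, the muscle form of phosphofructokinase, fell by 0.49 ± 0.12 on the log2 scale (SE; adjusted p = 0.0125 in limma with Benjamini-Hochberg adjustment over 15503 genes), which is 0.71 of its day 1 level. Eno3, the muscle enolase, fell by 0.50 ± 0.15 (adjusted p = 0.0351), and Hk2, the insulin-regulated hexokinase of muscle, fell by 0.42 ± 0.12 (adjusted p = 0.0326). Thus 3 of the 10 genes were called lower and 0 higher, where 10.5% of all genes tested were called, 3.44% lower and 7.02% higher. Over all genes this was 1089 higher and 534 lower, against 87 higher and 0 lower under median centring and 1826 higher and 2038 lower with the ratio of the scanner software, and 0 and 6 of the 10 genes were called under these. All 10 differences were below 0, compared with 50.6% of all genes, and their median was -0.31 against -0.00 for all genes; when the arrays were centred on their median instead of by loess, 6 of 10 stayed below 0, and 8 of 10 lay below the median of all genes, which that centring moved to 0.13.

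The values by array show how far the control groups stood apart. Hk2 was at 2.11, 2.20, 2.27, 2.47 and 2.26 in the 5 day 1 controls, and its lowest, median and highest values in the 6 day 28 controls were 1.65, 1.83 and 2.09. The highest day 28 control lay just under the lowest day 1 control, so these groups did not overlap, which held downward for 2.35% of all genes. Pfkm was at 3.17, 3.45, 3.07, 3.58 and 3.46 at day 1 and at 2.46, 2.82 and 3.31 (lowest, median, highest) at day 28. Only the highest of the day 28 controls, replicate 6 at 3.31, reached into the day 1 range. Eno3 was at 4.57, 4.49, 4.67, 5.14 and 5.04 at day 1 and at 4.08, 4.24 and 4.74 at day 28. Again replicate 6 of the day 28 controls, at 4.74, was the only one above the lowest day 1 value, and the other 5 lay at or below 4.25.

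**Figure D1:**
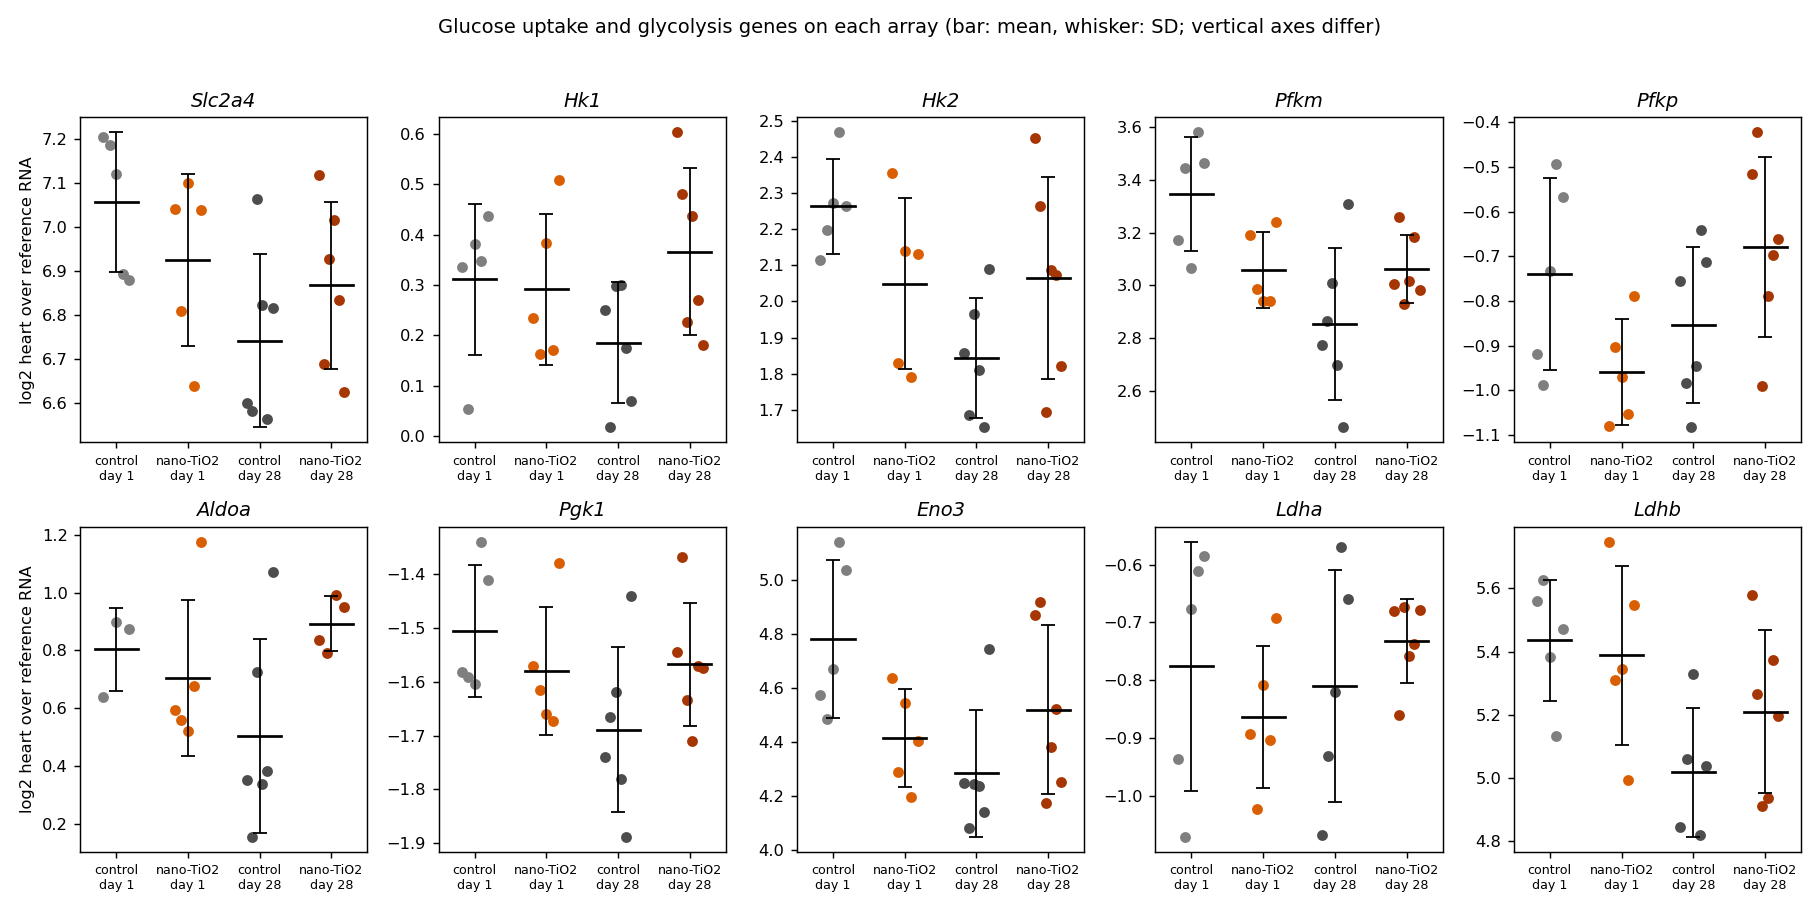
Log2 ratio of heart to reference RNA for each of the 10 genes, 1 point per mouse, by treatment and day, with the group mean (bar) and SD (whisker) and a separate vertical axis for each gene. Hk2 in the day 28 controls (1.65 to 2.09) lies wholly below the day 1 controls (2.11 to 2.47), while all other pairs of control groups overlap.

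Ldhb, the heart form of lactate dehydrogenase, and the transporter gene Slc2a4 (GLUT4) came next but did not pass the threshold. Ldhb was at 5.56, 5.63, 5.38, 5.13 and 5.47 in the day 1 controls and at 4.82, 5.04 and 5.33 in the 5 day 28 controls with a value. Only 1 of these 5, replicate 3 at 5.33, lay above the lowest day 1 control, and the difference was -0.42 ± 0.14 (adjusted p = 0.0648, limma). Slc2a4 was at 7.20, 7.19, 7.12, 6.89 and 6.88 at day 1 and at 6.56, 6.71 and 7.06 at day 28, and the difference was -0.32 ± 0.11 (adjusted p = 0.0698, limma). Again 1 day 28 control, replicate 3 at 7.06, lay inside the day 1 range. The differences of Aldoa (aldolase A), Pgk1 (phosphoglycerate kinase) and Hk1 (the broadly expressed hexokinase) were -0.30 ± 0.17, -0.18 ± 0.08 and -0.13 ± 0.09. Pfkp, the platelet form of phosphofructokinase, and Ldha, the muscle form of lactate dehydrogenase, differed by -0.11 ± 0.11 and -0.03 ± 0.10. The muscle and heart forms Pfkm and Ldhb thus had more negative values than their partners Pfkp and Ldha in this comparison, but a difference between partner genes was not tested. Pfkp was also dim in Cy5, where the offset added in background correction draws ratios towards 0.

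Slide and scan day were checked as batches, because each scan day held both control groups. Within the 3 scan days, Hk2 differed by -0.38, -0.39 and -0.49, Pfkm by -0.21, -0.49 and -0.64, and Eno3 by -0.43, -0.36 and -0.64. With scan day as a block these 3 genes stayed called (adjusted p from 0.0135 to 0.0419, limma). With slide as a block, 0 of 15503 genes passed, and the values were -0.39 ± 0.18 for Hk2, -0.55 ± 0.16 for Pfkm and -0.48 ± 0.21 for Eno3 (adjusted p = 0.264, 0.115 and 0.236, limma). Within the 3 slides that held both control groups, all 3 genes were lower at day 28 on every slide, with ranges from -0.61 to -0.31 for Hk2, from -1.0 to -0.06 for Pfkm and from -0.89 to -0.24 for Eno3. Leaving out any 1 control array kept Pfkm called in 11 of 11 fits, while Hk2 and Eno3 stayed called in 4 of 11 each. The number of the 10 genes called then ran from 1 to 4, and was 1 without day 28 control replicate 1, 2, 4 or 5.

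Markers of other cell types moved along with this comparison. The 8 ventricular and common heart muscle markers differed by a mean of -0.37 between the control groups, 3 of them called lower and 0 higher, and their mean log2 level per array, relative to all arrays, ran from -0.11 to 0.29 at day 1 and from -0.41 to 0.00 at day 28. Adipocyte markers differed by 4.47 on average, with 7 of 7 measured called higher, smooth muscle markers by 2.07 (5 of 5 higher), macrophage markers by 0.74 (3 of 4 higher) and atrial markers by 2.10 (2 of 6 higher). Their part in the lower levels of Hk2, Pfkm and Eno3 was not tested. Without the 5 arrays with liver or airway markers, which left 2 day 28 controls, Hk2 differed by -0.38, Pfkm by -0.26 and Eno3 by -0.37, and 0 of the 10 genes passed. Of these 2 controls, replicate 6 was the highest day 28 control for all 3 genes. The part of this 1 mouse in these values was not tested. Without the 3 arrays low in atrial transcripts the values were -0.44, -0.47 and -0.57, all called (adjusted p from 0.0241 to 0.0375, limma).

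At day 1 after instillation, none of the 10 genes passed the threshold between nano-TiO2 and control hearts. All 10 differences were below 0, with a median of -0.12 against 0.01 for all genes, where 45.8% of all genes lay below 0; under median centring 9 of the 10 lay above 0, and 7 of 10 lay below the median of all genes, which was then at 0.17. Eno3 differed by -0.37 ± 0.16 (95% interval from -0.69 to -0.04, adjusted p = 0.514, limma), 0.776 of its control level. Pfkm differed by -0.29 ± 0.13 (from -0.55 to -0.03, adjusted p = 0.538). These were the 2 of 10 genes with an unadjusted p under 0.05, compared with 2.64% of all genes in this direction. In the whole table, 0 of 15503 genes were called (0%, limma), 1338 had an unadjusted p under 0.05, and the smallest adjusted p was 0.273.

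At day 1 the values of single mice overlapped between the groups for all 10 genes (0.426% of all genes lay wholly below the controls). Eno3 was at 4.64, 4.29, 4.55, 4.20 and 4.40 in the nano-TiO2 mice, of which 2 lay inside the control range that began at 4.49. Pfkm was at 3.19, 2.99, 2.94, 2.94 and 3.24, with 2 of the 5 inside the control range. Hk2 was at 2.36, 1.83, 2.14, 1.79 and 2.13, and the difference of -0.21 ± 0.13 came with 2 mice far below all controls and 3 inside their range. Pfkp ran from -1.08 to -0.79 in nano-TiO2 mice and from -0.99 to -0.49 in controls, a difference of -0.22 ± 0.11. Slc2a4 (-0.13 ± 0.12), Aldoa (-0.10 ± 0.17), Ldha (-0.09 ± 0.10), Pgk1 (-0.07 ± 0.09), Ldhb (-0.05 ± 0.14) and Hk1 (-0.02 ± 0.10) differed by about their error or less. Aldoa had a value in only 3 of the 5 day 1 controls, since the scanner software marked its spot on the others. Those others were the only day 1 controls of the third scan day, so its groups were not balanced over scan days. Within the first and second scan days Aldoa differed by -0.35 and -0.19, with 1 and 2 mice per group.

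Within the 3 scan days, the day 1 differences were -0.12, -0.07 and -0.79 for Eno3 and -0.13, -0.22 and -0.43 for Pfkm, so the third scan day held the largest for both. With slide as a block they were -0.44 and -0.27. On the 4 slides that held a mouse of each group, 3 pairs were lower and 1 higher for both, from -0.94 to 0.06 for Eno3 and from -0.64 to 0.02 for Pfkm. The heart muscle markers differed by -0.08 on average at day 1, adipocyte markers by 2.73 and smooth muscle markers by 1.38, with 0 called in each list. Their part in the differences of the 10 genes was not tested.

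At day 28 the 10 genes lay on the other side of the controls, again with none past the threshold. All 10 differences were above 0, with a median of 0.19 against -0.01 for all genes, where 48.1% of all genes lay above 0; under median centring 8 of the 10 lay above 0, and 10 of 10 lay above the median of all genes, which was then at -0.10. Aldoa differed by 0.39 ± 0.15 (95% interval from 0.07 to 0.71, adjusted p = 0.637, limma), 1.31 times its control level. Hk1 differed by 0.18 ± 0.09 (adjusted p = 0.653). These were the 2 genes with an unadjusted p under 0.05, compared with 2.21% of all genes in this direction. Of 15503 genes 0 were called (0%, limma), 1177 had an unadjusted p under 0.05, and the smallest adjusted p was 0.637.

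The day 28 groups also overlapped for all 10 genes (0.0452% of all genes lay wholly above the controls). Aldoa had its lowest, median and highest values at 0.15, 0.37 and 1.07 in the 6 day 28 controls and at 0.79, 0.89 and 0.99 in the 4 nano-TiO2 mice with a value. All 4 lay above 5 of the 6 controls and below the remaining one, replicate 6. Hk1 was at 0.02, 0.21 and 0.30 in controls and at 0.18, 0.35 and 0.60 in nano-TiO2 mice, of which 3 lay above all controls. For Hk2 the lowest, median and highest values were 1.65, 1.83 and 2.09 in controls and 1.69, 2.08 and 2.45 in nano-TiO2 mice. The remaining differences were 0.24 ± 0.14 for Eno3, 0.22 ± 0.12 for Hk2, 0.21 ± 0.11 for Pfkm and 0.19 ± 0.14 for Ldhb. Pfkp (0.17 ± 0.10), Slc2a4 (0.13 ± 0.11), Pgk1 (0.12 ± 0.08) and Ldha (0.08 ± 0.10) were smaller still.

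Scan days differed in size at day 28. Aldoa differed by 0.26, 0.59 and 0.24 and Hk1 by 0.03, 0.41 and 0.10 within the 3 scan days, and Eno3 by 0.04, 0.73 and -0.06, so the second scan day held the largest difference of each. Every day 28 control shared a slide with 1 nano-TiO2 mouse, and these 6 pairs went both ways, 4 higher and 2 lower, for Eno3 (from -0.49 to 0.83), Hk2 (from -0.27 to 0.60) and Pfkm (from -0.32 to 0.72). Hk1 was higher in 5 of 6 pairs (from -0.07 to 0.46) and Aldoa in 3 of 4 (from -0.12 to 0.61). With slide as a block the differences were 0.26 ± 0.13 for Aldoa and 0.18 ± 0.10 for Hk1 (adjusted p = 0.712 and 0.716, limma). Heart muscle markers lay 0.16 higher on average in nano-TiO2 hearts, adipocyte markers differed by -2.01, liver markers by -2.03 and smooth muscle markers by -0.95, with 0 called in each list. Their part was not tested. Without the 5 arrays with liver or airway markers, Pfkm differed by -0.02 and Pgk1 by -0.01, Eno3 by 0.11 and Aldoa by 0.28. Of the 2 controls left, replicate 6 was the highest day 28 control for all of these genes.

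**Figure D2:**
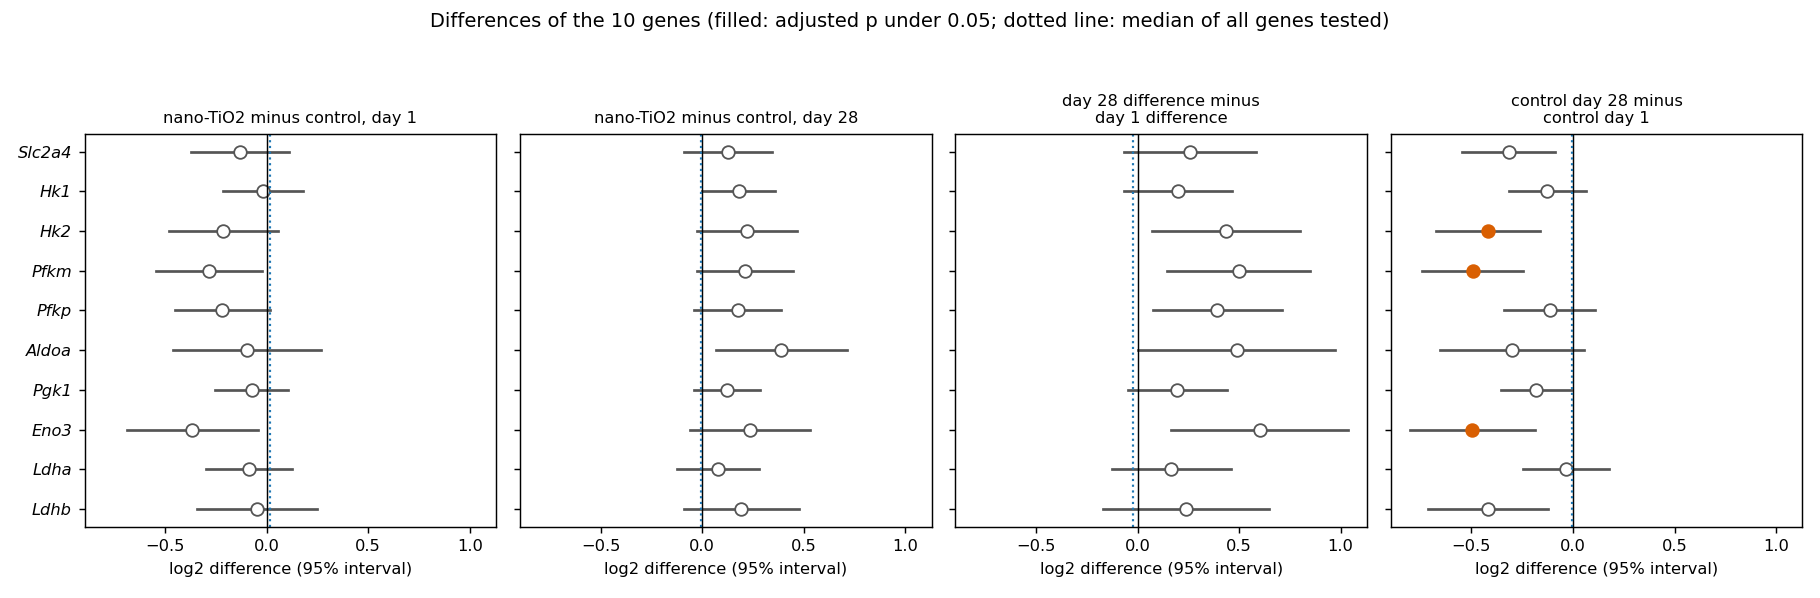
Log2 differences of the 10 genes with 95% intervals from limma in the 4 comparisons, with filled points for an adjusted p under 0.05 and a dotted line at the median of all genes tested. With loess all 10 points lie below 0 at day 1 and above 0 at day 28, which changed for 9 and 2 genes under median centring, and only Hk2, Pfkm and Eno3 in the comparison of controls are filled.

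The change of the nano-TiO2 difference from day 1 to day 28 was tested directly as an interaction. It was above 0 for 10 of 10 genes, compared with 45.8% of all genes, but under median centring for 3 of 10, with 8 of 10 above the median of all genes, which was then at -0.27. Eno3 had 0.60 ± 0.21 (adjusted p = 0.186, limma), Pfkm 0.50 ± 0.17 (0.179), Aldoa 0.49 ± 0.23 (0.337), Hk2 0.44 ± 0.18 (0.249) and Pfkp 0.39 ± 0.15 (0.233). These 5 genes had an unadjusted p under 0.05, where 4.81% of all genes did in this direction. No gene in the table passed (0% of 15503, 2287 at an unadjusted p under 0.05, limma), and the smallest adjusted p was 0.0732. The comparison of the control groups shares its mice with both nano-TiO2 comparisons and with this one, so the values are set side by side without a measure of their likeness. For Eno3 they were -0.37 at day 1, 0.24 at day 28 and -0.50 between the controls, for Pfkm -0.29, 0.21 and -0.49, and for Hk2 -0.21, 0.22 and -0.42. For Ldha they were -0.09, 0.08 and -0.03. The group means of Eno3 were 4.78 ± 0.29 in day 1 controls and 4.41 ± 0.18, 4.28 ± 0.23 and 4.52 ± 0.31 in day 1 nano-TiO2 mice, day 28 controls and day 28 nano-TiO2 mice (SD). Those of Pfkm were 3.35 ± 0.22, 3.06 ± 0.14, 2.85 ± 0.29 and 3.06 ± 0.13 in the same order, so in both genes the day 1 controls had the highest mean and the day 28 controls the lowest.

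Some genes were read by more than 1 probe. The second Aldoa probe differed by -0.27 at day 1, 0.18 at day 28 and -0.38 between the controls, in the direction of the probe used each time. The second Pgk1 probe was above 0 at day 1 (0.16), against -0.07 for the probe used, and differed by 0.17 at day 28 and -0.12 between controls. The second Ldha probe gave -0.09, 0.07 and -0.10 and the second Pfkp probe -0.12, 0.05 and -0.08. Of 5 Hk1 probes 3 were kept, and those not used differed by 0.06 and -0.01 at day 1 and by 0.16 and 0.02 at day 28. Hk1 and Pfkp were dim, with mean Cy5 signals of 7.26 and 7.18 on the log2 scale, where the offset added in background correction draws ratios towards 0.

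Within groups, several of the genes varied together over arrays, where a mouse and its array cannot be told apart. After the mean of each group was subtracted, 39 of 45 pairs of the 10 genes correlated positively over arrays, with a median Pearson r of 0.34. Both values of a pair come from the same hybridisation and the same reference. The same share over pairs of all genes was not computed, so these counts do not set the 10 genes apart. The best match of each gene outside the 10, picked from 10231 genes, had r from 0.79 to 0.95. Pfkm and Pgk1 had r = 0.87 (rho = 0.84) and Hk2 and Eno3 r = 0.85 (rho = 0.85), each with p = 1e-05 for r, the smallest that 100000 permutations within groups can give, adjusted to 0.000225 over 45 pairs (p for rho adjusted to 0.000675 and 0.00045). Without the 2 arrays farthest from the median of the first gene these were 0.79 and 0.82. Within the 3 scan days Pfkm and Pgk1 had r = 0.73, 0.63 and 0.94, and Hk2 and Eno3 had 0.85, 0.88 and 0.92. The permutations did not keep arrays within their scan day or slide. A shift shared by the arrays of a scan day therefore enters r over all arrays, and the permutation p-values do not account for it.

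A further 4 pairs had an adjusted permutation p under 0.05: Pgk1 with Eno3 (r = 0.70, rho = 0.65, p = 0.00107, adjusted 0.0161, for rho 0.0272), Pfkp with Eno3 (r = 0.67, rho = 0.64, p = 0.00395, adjusted 0.0335, for rho 0.0452), Pfkm with Eno3 (r = 0.61, rho = 0.64, p = 0.00447, adjusted 0.0335, for rho 0.0277) and Hk2 with Pfkm (r = 0.57, rho = 0.63, p = 0.00261, adjusted 0.0294, for rho 0.0272). Without the 2 farthest arrays they had r = 0.69, 0.57, 0.52 and 0.67. Within the 6 arrays of the first scan day, Pgk1 with Eno3 and Pfkm with Eno3 had only r = 0.13 and 0.15, against values between 0.43 and 0.81 on the others. Slc2a4 and Pfkp had the lowest r, -0.41 (permutation p adjusted 0.179), with -0.19, -0.35 and 0.31 within the scan days. Slc2a4 had a median r of 0.10 with the other 9 genes, and Hk2, with a median of 0.54, the highest. The low values of Slc2a4 did not hold on every scan day. With Pfkm it had r = 0.91, -0.20 and 0.65 within them, and with Pgk1 0.76, -0.40 and 0.67. On the third scan day its r with the other 9 genes ran from 0.28 to 0.87.

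**Figure D3:**
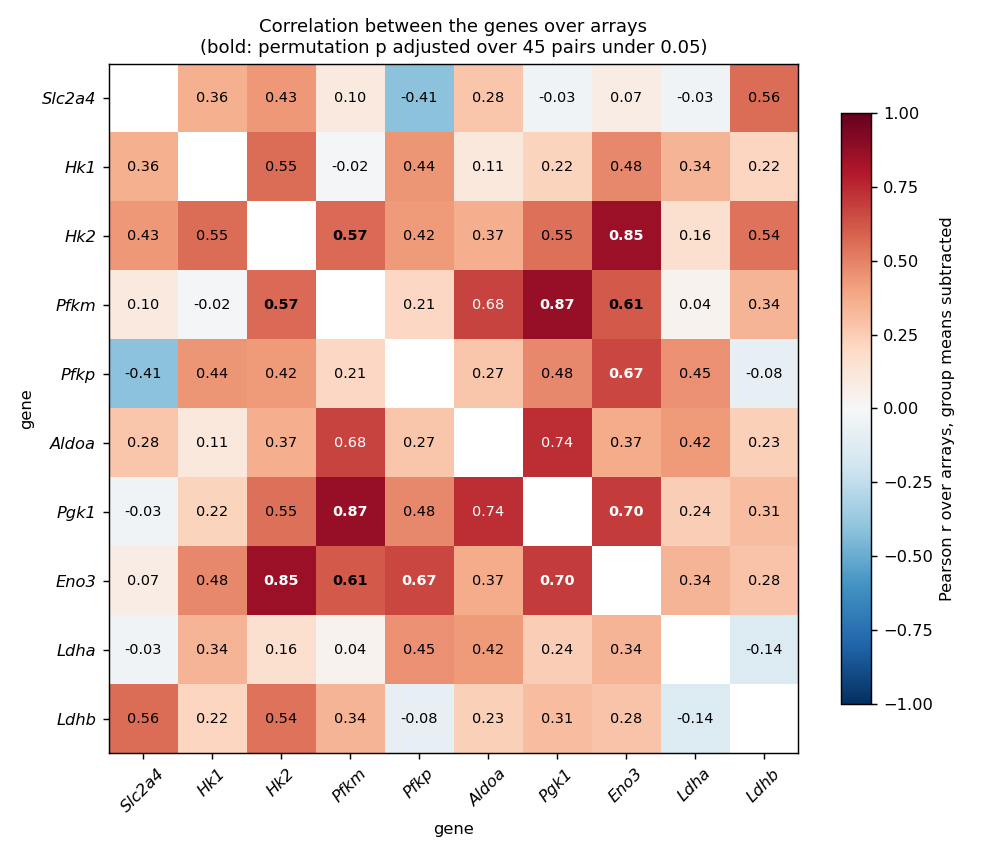
Pearson r between each pair of the 10 genes over arrays after the mean of each group was subtracted, with bold figures where the permutation p adjusted over 45 pairs is under 0.05. Pfkm with Pgk1 (0.87) and Hk2 with Eno3 (0.85) stand highest, and Slc2a4 with Pfkp (-0.41) lowest.

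The same within-group variation was set against the mean of the 8 heart muscle markers on each array, 1 relation for each of the 10 genes. Ldhb had r = 0.75 (rho = 0.77, permutation p = 0.00051, adjusted 0.005, 21 arrays), Hk2 0.66 (rho = 0.63, p = 0.00301, adjusted 0.01), and Pfkm 0.64 (rho = 0.72, p = 0.001, adjusted 0.005). Pgk1 had 0.62 (rho = 0.72, p = 0.0043, adjusted 0.0108) and Eno3 0.61 (rho = 0.59, p = 0.00635, adjusted 0.0127). The permutation p of rho, adjusted over the 10 relations, lay between 0.00187 and 0.0146 for these 5 genes. These permutations too took no account of scan day or slide. The share of all genes tested with such a relation was not computed, so the count does not set the 10 genes apart. Without the 2 arrays farthest from the median of the markers, r for these 5 genes was 0.77, 0.65, 0.75, 0.69 and 0.57. The relation was uneven between scan days for Pfkm, with r = 0.92, 0.10 and 0.81, and for Pgk1, with 0.87, 0.12 and 0.80. Slc2a4 had r = 0.32 over 22 arrays (rho = 0.36, permutation p = 0.18, adjusted 0.257) but 0.96, 0.79 and 0.83 within the scan days. Aldoa (0.40), Pfkp (0.29), Hk1 (0.21) and Ldha (0.10) had adjusted permutation p-values between 0.136 and 0.683.

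**Figure D4:**
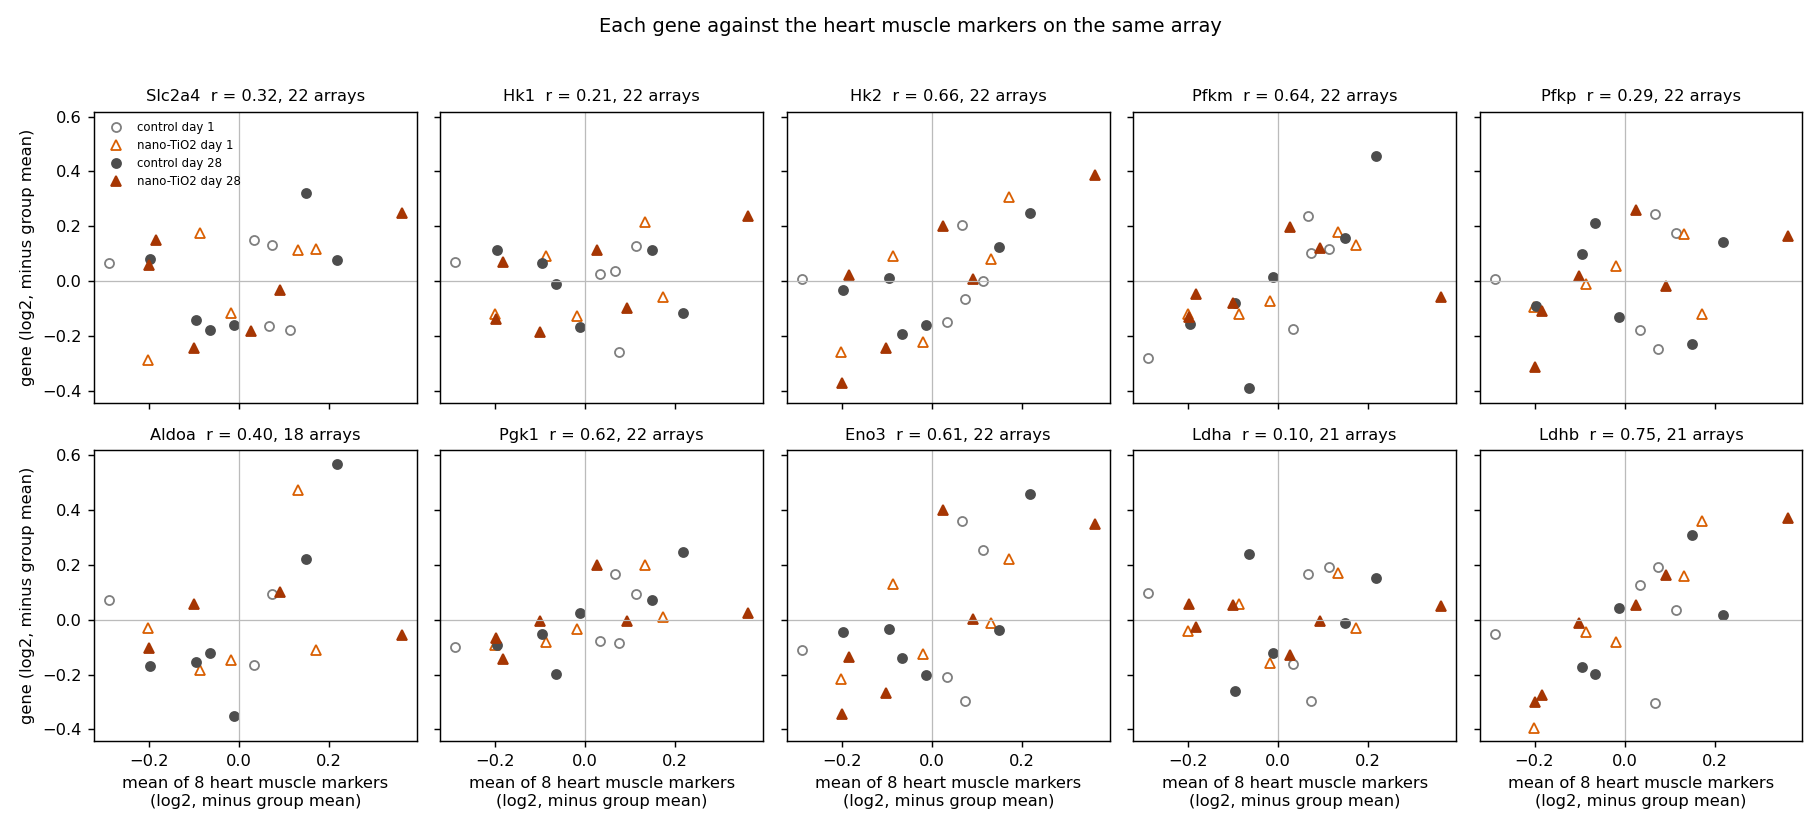
Each gene against the mean of 8 heart muscle markers on the same array, both as log2 values minus the mean of their group, 1 point per mouse with circles for controls, triangles for nano-TiO2 and filled points for day 28. Over all arrays Pearson r is between 0.61 and 0.75 for Ldhb, Hk2, Pfkm, Pgk1 and Eno3 and 0.10 for Ldha.

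The other genes of the pathway were read from 7 lists with 75 of 89 genes measured. Between the control groups 17 of the 75 were called, 5 higher and 12 lower, where 7.02% of all genes were called higher and 3.44% lower, and the median difference of the 75 was -0.06 against -0.00 for all genes. The largest group of calls lay in the list on the fate of pyruvate and lactate. There, 8 of 16 measured genes were lower and 1 higher at day 28, against the same shares of all genes. These were named after their values were seen. Subunits of the pyruvate dehydrogenase complex fell by 0.56 ± 0.11 (Dlat), 0.42 ± 0.08 (Pdhx), 0.41 ± 0.09 (Dld), 0.41 ± 0.10 (Pdhb) and 0.27 ± 0.08 (Pdha1). Both genes of the mitochondrial pyruvate carrier, Mpc1 and Mpc2, fell by 0.37 ± 0.09 and 0.41 ± 0.09, and the lactate and pyruvate transporter gene Slc16a1 by 0.32 ± 0.09. Pdk3, a kinase that inhibits the complex, was 0.59 ± 0.13 higher. Adjusted p ran from 0.00503 to 0.0421 over these 9 genes (limma), and 6 of the 8 lower genes and Pdk3 had control groups that did not overlap (2.35% of all genes downward and 4.66% upward).

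Calls elsewhere in the pathway between the control groups were at most 2 per list, and they too were named after their values were seen. Pgam2, the muscle phosphoglycerate mutase, fell by 0.44 ± 0.10 and Pgam1, the broadly expressed form, was 0.45 ± 0.14 higher. Pfkfb3, whose product makes the activator fructose 2,6-bisphosphate, was 1.39 ± 0.34 higher, and Tigar, whose product lowers that activator, fell by 0.38 ± 0.12. Pygl, the liver form of glycogen phosphorylase, was 1.91 ± 0.46 higher, and Pik3r1, a regulatory subunit of PI 3-kinase, 0.46 ± 0.13 higher. Ppargc1a, a coactivator of mitochondrial genes, fell by 0.33 ± 0.09. As for the 10 genes, 0 of the 75 passed with slide as a block, under median centring, with normexp fitted on all spots, or without the 5 arrays with liver or airway markers. Adipocyte, smooth muscle and heart muscle markers differed in the same comparison, by the values given above.

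**Figure D5:**
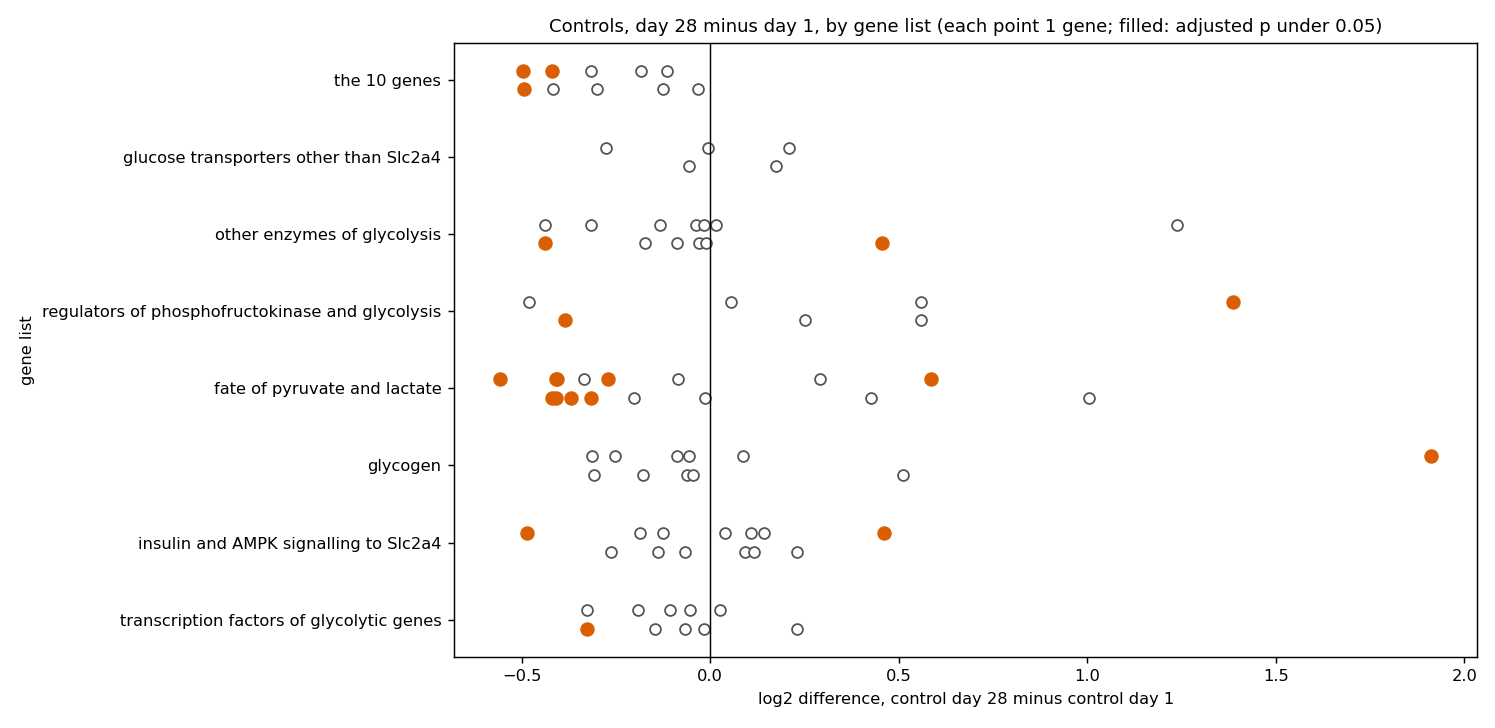
Log2 difference between control hearts at day 28 and day 1 for the 10 genes and for 75 other genes of 7 pathway lists, 1 point per gene, filled where the adjusted p is under 0.05 and set at 2 heights only to keep points apart. The list on the fate of pyruvate and lactate has 8 filled points below 0 and 1 above.

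None of the 75 pathway genes passed in a nano-TiO2 comparison. At day 1, 43 of 75 lay below 0, and 6 had an unadjusted p under 0.05 in that direction and 2 above (2.64% and 5.99% of all genes). Pdhb, Dld and Slc16a1 differed by -0.27 ± 0.11, -0.24 ± 0.10 and -0.20 ± 0.09. Pygl differed by 1.10 ± 0.48, Pfkfb4, another enzyme of fructose 2,6-bisphosphate, by 0.22 ± 0.09, Pfkfb3 by 0.54 ± 0.36 and Bpgm, of the side branch to 2,3-bisphosphoglycerate, by 0.39 ± 0.33. Of the other glycolytic enzymes Tpi1, Eno2 and Hk3 differed by -0.20 ± 0.12, -0.16 ± 0.13 and -0.12 ± 0.11. The transporters Slc2a1 (0.07), Slc2a10 (0.07) and Slc2a8 (0.05), the glycogen genes Gyg (-0.09) and Ugp2 (-0.14) and the signalling genes Stx4a (0.14) and Akt1 (-0.10) were not called either. Among transcriptional regulators Esrra, Ppargc1a and Mef2a differed by -0.14, -0.15 and 0.15.

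At day 28, 47 of 75 lay above 0, with 7 at an unadjusted p under 0.05 above and 6 below (2.21% and 5.38% of all genes). Slc16a7, a pyruvate transporter gene, differed by -0.39 ± 0.13, while Dlat and Dld differed by 0.28 ± 0.11 and 0.21 ± 0.09. Pfkfb3 was at -0.97 ± 0.33, Pygl at -1.19 ± 0.44 and Pik3r1 at -0.33 ± 0.12. Hif1a, which encodes the oxygen-regulated subunit of hypoxia-inducible factor 1, was at 0.25 ± 0.12, Esrra at 0.16 ± 0.08, Klf15 at -0.28 ± 0.28, Ugp2 at 0.29 ± 0.13 and Pgm1 at 0.20 ± 0.11. Tpi1 (0.21), Pfkl (0.12), Tigar (0.20), Txnip (0.50), Rab10 (0.10), Akt1 (0.08), Slc2a12 (0.14), Slc2a3 (0.08) and Slc2a8 (0.07) had adjusted p-values from 0.659 to 0.866 (limma). Liver markers lay 2.03 lower in the same comparison, and their part in these values was not tested.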

How the data were processed

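Heart RNA of 22 mice was hybridised to Agilent 2-colour arrays with probes designed on mouse genome build mm8. In the deposited scanner files, median intensity is given for spot and local background in Cy5 and Cy3 without correction. Their log10 ratio comes from Agilent Feature Extraction after background and dye correction (version 10.7.3.1 per the file headers, 9.5.3.1 per the submitters' processing notes). The authors' series matrix has log2 values made by steps not given in the sources used here. It correlated at r from 0.992 to 0.998 with log2 ratios made by loess without background subtraction (slope from 0.984 to 0.996), and its column medians lay between -0.036 and -0.021, so scale and direction are settled and the centring is not known.

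Background was corrected with normexp (offset 50), fitted without spots of uneven background, and each array was normalized with loess in limma 3.58.1 (R 4.3.3). Spots marked uneven or outlying by the scanner software (0.299%) were left out, among them Aldoa on 4 arrays and Ldha and Ldhb on 1. A filter kept probes that 5 or more arrays detected in Cy5 well above background, and the brightest kept probe in Cy5 stood for its gene (15503 genes, 10478 with a symbol). Accessions were matched to RefSeq (GRCm38.p6), 23374 of 41174 probes. Groups were compared with limma (a mean per group, eBayes, Benjamini-Hochberg over all genes, threshold 0.05). Correlations used 100000 permutations within groups, without regard to scan day or slide (numpy 2.4.6, pandas 2.3.3, Python 3.11.15), and figures matplotlib 3.10.9.

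Genes named by rule were the 10 genes, the 3 genes of each pathway list with the smallest p in each nano-TiO2 comparison, and for each of the 10 the gene most like it; 2 pathway genes under this rule enter the counts and are not reported here by name. Pathway genes called between the controls were named as well, after their values were seen. The genes and lists were chosen with earlier results of these data known. Alternatives were other background corrections, the scanner ratio, the series matrix, median centring, other filters and probe summaries, slide or scan day as a block, only the compared groups, trend and robust eBayes, and each replicate left out. Leaving out arrays low in atrial transcripts or with liver or airway transcripts was added after seeing the data.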

Additional observations from a re-analysis of the deposited data

Results flagged for a closer look

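Of 40 sets of values (10 genes in 4 groups), Aldoa in the day 1 controls had only 3 values and could not be tested. In 3 of the other sets, 1 mouse lay far from the others of its group by Dixon's test, which chance alone gives in about 1 in 20. Hk1 in day 1 control replicate 2 was at 0.054, where the nearest other mouse was at 0.34. Aldoa in day 1 nano-TiO2 replicate 5 was at 1.18, with the nearest at 0.68. Eno3 in day 28 control replicate 6 was at 4.74, with the nearest at 4.25.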

How the results depend on the processing

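Between the control groups, Pfkm stayed called in 21 of 25 alternatives and Hk2 and Eno3 in 13 each, and none of the 3 changed direction in any. The count of genes called there (1623) was 3864 with the scanner ratio, 87 under median centring, 79 with normexp fitted on all spots, 0 with slide as a block, 1 without the arrays with liver or airway transcripts, and from 958 to 2069 with 1 array left out. The count of the 10 genes called there (3) was 6 with the scanner ratio, 1 with no filter on dim probes, 0 under median centring, with normexp on all spots, with slide as a block and without the arrays with liver or airway transcripts, and from 1 to 4 with 1 array left out (1 without day 28 control replicate 1, 2, 4 or 5). At day 1 the count of all genes (0) was 7 with the scanner ratio, 40 without the arrays low in atrial transcripts and from 0 to 21 with 1 left out (21 without nano-TiO2 replicate 1). At day 28 it ran from 0 to 3 (3 without control replicate 6). For the change of the difference it was 45 with the scanner ratio, 6 with scan day as a block, 95 without the arrays low in atrial transcripts and from 0 to 311 with 1 left out (311 without day 1 nano-TiO2 replicate 1, 178 without day 28 nano-TiO2 replicate 3, 28 without day 28 control replicate 6 and 13 without day 28 nano-TiO2 replicate 6). In these 3 comparisons 0 of the 10 genes were called in any alternative. Of the other 75 pathway genes, 17 were called between controls and 37 with the scanner ratio.

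Signs turned mostly under median centring. Median centring gave Slc2a4 0.17, Hk1 0.16, Hk2 0.12, Pfkm 0.067, Pfkp 0.023, Pgk1 0.31, Eno3 0.026, Ldha 0.30, Ldhb 0.33, Akt1 0.22, Dld 0.054, Eno2 0.11, Esrra 0.17, Gyg 0.25, Hk3 0.056, Pdhb 0.060, Ppargc1a 0.13, Slc16a1 0.14, Slc2a10 -0.10, Tpi1 0.20 and Ugp2 0.16 at day 1, and Slc2a4 -0.030, Pgk1 -0.043, Akt1 -0.079, Pfkl -0.040, Rab10 -0.054, Slc2a3 -0.022 and Slc2a8 -0.069 at day 28, and Slc2a4 -0.20, Hk1 -0.11, Hk2 -0.062, Pfkm -0.019, Pgk1 -0.35, Ldha -0.29 and Ldhb -0.22 for the change of the difference, and Hk1 0.090, Pfkp 0.14, Pgk1 0.082 and Ldha 0.14 between controls. Normexp on all spots gave Slc2a4 0.15, Hk1 0.027, Aldoa 0.011, Ldhb 0.016 and Ppargc1a 0.020 at day 1, and Slc2a4 -0.086 at day 28, and Slc2a4 -0.23 for the change of the difference. The mean of all kept probes gave Hk1 0.0088, Pgk1 0.041, Slc16a1 0.013, Slc2a8 -0.019 and Stx4a -0.031 at day 1. The scanner ratio gave Hk3 0.38, Mef2a -0.037 and Slc2a8 -0.019 at day 1, and Slc2a12 -0.0093 and Slc2a3 -0.029 at day 28. The series matrix gave Ldha -0.021 at day 28, and Ldha 0.068 between controls. Leaving out the arrays with liver or airway transcripts gave Hk1 0.013 at day 1, and Pfkm -0.024, Pgk1 -0.013, Akt1 -0.0095 and Slc2a8 -0.090 at day 28. With 1 array left out, Ldhb at day 1 ran from -0.14 to 0.052, Hk1 at day 1 ran from -0.083 to 0.013, Slc2a8 at day 1 ran from -0.015 to 0.093 and Ldha between controls ran from -0.11 to 0.031. The causes of these turns were not tested. No paired analysis by replicate number was possible because the labels give none shared between groups, and the slide, which paired 4 mice of each arm at day 1 and 6 at day 28, served as the block. Signal over background limits Hk1 and Pfkp.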

Other observations

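For each of the 10 genes, the gene with the most similar variation over arrays after the mean of each group was subtracted was picked from 10231 genes with a symbol, as a description. Eno3 was closest to Slc25a11, a carrier of the mitochondrial inner membrane (r = 0.95), Pfkm to Acot7, an acyl-CoA thioesterase (0.93), and Hk2 to Ptcd3, a protein of the mitochondrial ribosome (0.92). Ldhb was closest to Vdac2, a channel of the mitochondrial outer membrane (0.91), Slc2a4 to Idh3b, a subunit of the citric acid cycle enzyme isocitrate dehydrogenase (0.89), and Pgk1 to Ndufs3, a subunit of respiratory complex I (0.87). Pfkp was closest to Ccnb2, a cyclin of cell division (0.89), Aldoa to Abcf1, a factor in translation (0.89, 18 arrays), Hk1 to Cpsf1, a subunit of the complex that processes mRNA ends (0.84), and Ldha to Tmem109 (0.79). The highest of 10231 values is large by selection alone, and the points share arrays and reference.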
